A study of Mus musculus with 14 samples.

Results

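Complement is a set of plasma and cell surface proteins that was followed here in bone marrow through 8 genes, listed by symbol with earlier results of these data known: the classical pathway proteases C1ra and C1s1, the components C4b and C2, the central component C3, factor B (Cfb), properdin (Cfp) and the C1 inhibitor Serping1. All 8 were among the 23441 genes of the study's count matrix, and all 8 passed the filter on low counts that left 17494 genes to be tested. Bulk RNA sequencing was done on plugs flushed from the distal tibia, a site rich in marrow fat, in 14 samples that each pooled a pair of male mice of strain C57BL6/SJL, 24 weeks old by the labels. The design crossed 2 genotypes with 2 diets: BMAd-Pnpla2+/+ mice fed ad libitum (AL, n = 4) or under 30% caloric restriction (CR, n = 4), and BMAd-Pnpla2-/- mice, which lack the lipase ATGL in bone marrow adipocytes, fed AL (n = 3) or CR (n = 3), with 6 weeks of diet. Both genotypes carried Osterix-FLPo and the FLPo-activated Cre placed in the Adipoq gene, and differed in whether the Pnpla2 alleles were floxed. Osterix is also active in osteoblasts and some stromal cells and Cre expression follows Adipoq, so that deletion needs both drivers to have been active in a cell or its forebears. The cassette in Adipoq lowers adiponectin, in both genotypes alike.

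Complement works as a cascade of proteolytic steps. The classical pathway starts when C1q binds a target and activates the proteases C1r and C1s, which cleave C4 and C2, while the lectin pathway reaches the same step through MASP proteases. The alternative pathway amplifies C3 cleavage with factor B, factor D and properdin, and C1 inhibitor holds the first steps in check. The liver makes most circulating complement, properdin comes largely from myeloid cells, and factor D, also called adipsin, is an adipocyte product.

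The genes lay on 4 chromosomes of the mm10 build by the GENCODE annotation, all protein coding. C1ra (chr6:124512405-124523443, plus strand) and C1s1 (chr6:124530345-124542359, minus strand) were neighbours on chromosome 6. Cfb (chr17:34856374-34862518) and C2 (chr17:34862604-34898265) adjoined each other on the minus strand of chromosome 17, near C4b (chr17:34728380-34743882) and farther from C3 (chr17:57203970-57228136), both also on the minus strand. Serping1 lay on chromosome 2 (chr2:84765387-84775444) and Cfp on chromosome X (chrX:20925454-20931555), both on the minus strand.

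The promoter sequences of C3 and Cfp are given because these members fell with CR at an adjusted p under 0.05. C3 did so in both genotypes and Cfp in -/- mice alone. Those of C1ra and C1s1 are given because these neighbouring proteases were high and low in the same samples (Pearson r = 0.73 over 14 samples). RefSeq sequence (GRCm38.p6, 250 bases before to 50 after the RefSeq start, 300 bases in all) was matched for 4 of the 8 members. The others, C4b, C2, Cfb and Serping1, had no entry. Each is written 5′ to 3′ with matches to the searched motifs on either strand in capitals.
C3 promoter, chr17:57228087-57228386, minus strand: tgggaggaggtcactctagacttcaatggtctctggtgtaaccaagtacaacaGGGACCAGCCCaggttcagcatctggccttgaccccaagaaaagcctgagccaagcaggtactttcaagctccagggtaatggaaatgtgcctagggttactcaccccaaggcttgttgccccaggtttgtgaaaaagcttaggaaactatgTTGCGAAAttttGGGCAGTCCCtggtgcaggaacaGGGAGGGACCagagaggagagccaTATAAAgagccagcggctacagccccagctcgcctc
Cfp promoter, chrX:20931506-20931805, minus strand: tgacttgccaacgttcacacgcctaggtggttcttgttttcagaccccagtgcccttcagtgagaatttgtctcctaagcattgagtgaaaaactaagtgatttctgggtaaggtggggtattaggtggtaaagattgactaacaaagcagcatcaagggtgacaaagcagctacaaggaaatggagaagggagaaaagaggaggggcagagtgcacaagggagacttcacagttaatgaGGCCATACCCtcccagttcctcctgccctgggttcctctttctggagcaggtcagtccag
C1ra promoter, chr6:124512371-124512670, plus strand: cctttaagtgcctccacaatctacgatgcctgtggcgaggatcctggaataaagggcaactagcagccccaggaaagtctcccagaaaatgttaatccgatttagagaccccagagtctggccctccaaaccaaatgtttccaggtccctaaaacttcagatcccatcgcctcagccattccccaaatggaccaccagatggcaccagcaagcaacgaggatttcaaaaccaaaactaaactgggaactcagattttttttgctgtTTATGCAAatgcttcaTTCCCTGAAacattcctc
C1s1 promoter, chr6:124542310-124542609, minus strand: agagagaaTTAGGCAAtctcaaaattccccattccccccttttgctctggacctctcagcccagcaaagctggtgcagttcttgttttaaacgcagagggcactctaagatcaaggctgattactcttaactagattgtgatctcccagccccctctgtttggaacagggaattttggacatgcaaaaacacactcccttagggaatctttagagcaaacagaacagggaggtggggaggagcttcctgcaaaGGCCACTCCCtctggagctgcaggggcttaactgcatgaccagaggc

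Letters of 6 motifs were searched on both strands. In C3 the capitals mark 4 matches to an NF-kB pattern (GGG, any 5 bases, CC), of which one pair overlapped, 1 match to a C/EBP pattern (TTGCNNAA) and 1 match to the TATA letters (TATAAA), which lay 14 bases past the annotated start. Cfp held 1 NF-kB match, and C1s1 held 1 NF-kB and 1 C/EBP match. A second C1s1 promoter in the table (chr6:124542272-124542571), which overlaps the one shown, held the NF-kB match without the C/EBP match. C1ra held 1 C/EBP match and 1 match to the GAS element (TTCNNNGAA). Its RefSeq start differs from the GENCODE start given above (chr6:124512405). Most of the C1ra window, with both matches, lies past that GENCODE start and not before it. No match to the interferon response core (GAAA, any 2 bases, GAAA) or to a glucocorticoid receptor pattern (ACANNNTGT) was found in these windows. Of 32851 promoters in the same table, 50.8% held the NF-kB letters, 10.8% C/EBP, 13.6% TATA, 8.3% GAS, 3.44% the interferon core and 6.85% the glucocorticoid receptor letters, and a match in letters is not a measured binding site.

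Counts per sample totalled 18898324 to 21665553 read pairs in genes. The targeted gene, Pnpla2, was at 219 ± 58.4 CPM (read counts scaled to a common library total with TMM factors, mean ± SD) in +/+ AL, 840 ± 241 in +/+ CR, 148 ± 21.7 in -/- AL and 224 ± 45.5 in -/- CR, and was lower in -/- than in +/+ under CR (log2 fold change -1.91 ± 0.26 SE, adjusted p = 0.039, and 0.053 to 0.22 with any of 8 single samples left out). That call was also lost with both strands summed (adjusted p = 0.054) and in a fit to the groups compared alone (0.21), with the same direction. Under AL every -/- sample was also below every +/+ sample (-0.57 ± 0.25), with adjusted p = 1.0. The plugs held adipocyte RNA (summed level of 10 markers 600 to 5461 CPM) beside far more neutrophil RNA (10 markers, 15364 to 36618 CPM) and erythroid RNA (9 markers, 10283 to 49872 CPM). In the 3 -/- CR samples 50.2% on average of strand-assigned reads fell on the first strand, against 4.42% to 4.51% by group mean elsewhere, so that the library type and the -/- CR group cannot be told apart. Counts without strand were therefore used for all samples. In bulk tissue, fewer cells of a type and less RNA per cell cannot be told apart.

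How much of each gene could be counted differed among the 8. The transcripts of C3, Cfp and Serping1 shared no exon with another gene and no stretch of 100 bases with another gene's transcript. Cfb shared 79.5% of its exon length with Gm20547, a protein-coding gene annotated on the same strand over both Cfb and C2, and C2 shared 46.9% with Gm20547 and, on the other strand, with Zbtb12. Gm20547 itself had a count of 0 in every sample, and STAR gives a read pair that lies in exons of more than 1 gene to none of them, so that much of C2 and Cfb could not be counted. C1s1 shared 18.4% of its exon length with the antisense gene Gm16567, and 66.2% to 69.1% of its read pairs counted by strand were kept without strand, taken over each of the 4 groups. Of 100-base windows, 35.9% of those in C1ra also stood in C1rb or Gm18840, 16.5% of those in C4b in C4a, and 7.90% of those in C1s1 in C1s2, so that a read lying wholly there matches more than 1 gene.

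**Figure D1:**
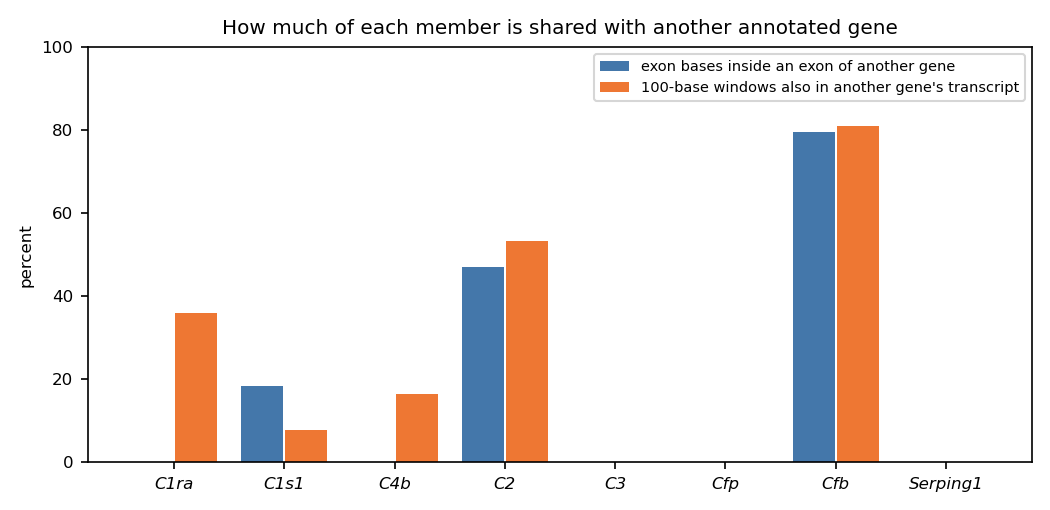
Share of each member that it holds in common with another gene, in percent: blue bars, exon bases that lie inside an exon of another gene; orange bars, 100-base windows of the longest transcript also found in a transcript of another gene. Cfb (79.5% of exon bases) and C2 (46.9%) are the most affected, and C3, Cfp and Serping1 have no bar.

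Levels per length were compared on the FPKM scale (CPM per kilobase of merged exon). Serping1, which inactivates C1r and C1s, stood highest in all 4 groups, with 279 ± 27.8 FPKM in +/+ AL, 396 ± 122 in +/+ CR, 285 ± 118 in -/- AL and 301 ± 83.2 in -/- CR. C3 and Cfp came next. C3 was at 160 ± 19.9 FPKM and Cfp at 137 ± 11.1 in +/+ AL, and at 100.1 ± 16.4 and 103 ± 7.79 in -/- CR, and their sample ranges overlapped in every group, so that their order is not settled. C4b followed, from 57.3 ± 10.3 FPKM in -/- AL to 93.2 ± 34.2 in +/+ CR, and overlapped C3 in +/+ CR. C1ra (17.6 to 20.5 FPKM by group mean) stood above C1s1 (10.9 to 13.04), with C2 (1.68 to 2.31) and Cfb (0.0698 to 0.217) lowest. On the merged exon length the ranges of these neighbours did not overlap within any group. Over the exon length that no other gene shares, the mean over 14 samples rose from 1.97 to 3.71 FPKM for C2 and from 0.153 to 0.747 FPKM for Cfb, which left both below C1s1 (14.2 FPKM). C1s1 itself rose from 11.6 to 14.2 FPKM on that length, nearer to C1ra at 19.3 FPKM. Sample ranges were not compared on that length, so a lack of overlap between C1ra and C1s1 is not settled.

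**Figure D2:**
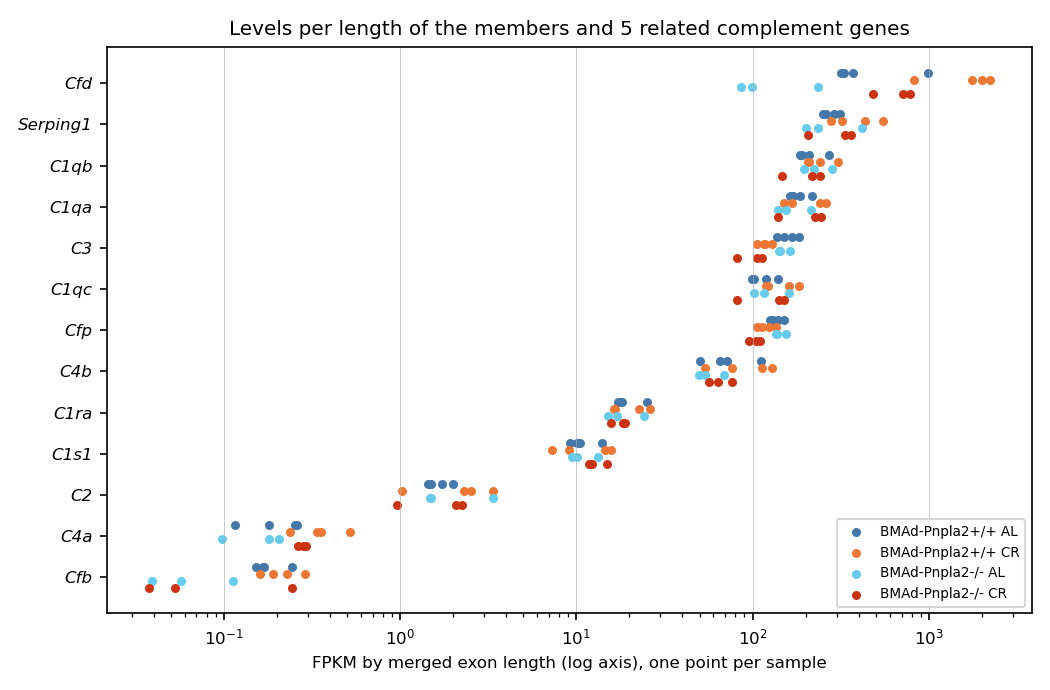
FPKM (log axis, 1 point per sample, coloured by group) of the 8 members and of Cfd, C1qa, C1qb, C1qc and C4a. Serping1, C3 and Cfp lie near or above 100 FPKM in most samples, and Cfb lies under 1 FPKM in every sample.

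The question of the diet comparison was what CR changed in marrow of each genotype. C3, whose cleavage is the step that all pathways share, was at 944, 771, 858 and 710 CPM in +/+ AL and at 667, 597, 545 and 609 CPM in +/+ CR. In -/- marrow it was at 739, 724 and 839 CPM under AL and at 579, 419 and 546 CPM under CR. Every CR sample was below every AL sample of its genotype. C3 fell by 26.3% in +/+ mice (log2 fold change -0.44 ± 0.12 SE, adjusted p = 0.021) and by 32.9% in -/- mice (-0.58 ± 0.14, adjusted p = 0.023).

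Properdin, which stabilises the alternative pathway convertase, was at 263, 219, 242 and 228 CPM in +/+ AL and at 216, 235, 185 and 197 CPM in +/+ CR, with overlap between the groups. In -/- marrow Cfp was at 240, 269 and 235 CPM under AL and at 165, 181 and 192 CPM under CR, without overlap. It fell by 27.7% in -/- mice (log2 fold change -0.47 ± 0.11, adjusted p = 0.020), and in +/+ mice the difference was -0.19 ± 0.09 with adjusted p = 0.14. The difference between these diet effects was -0.28 ± 0.14 on the log2 scale (interaction, adjusted p = 0.53).

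Thus 1 of 8 members passed an adjusted p of 0.05 under CR in +/+ mice, where 26.0% of all genes tested did, and 2 of 8 in -/- mice, where 11.6% did. The first share is below the background and the second is above it by about 1 gene, so neither sets the members apart. These shares themselves moved with single samples: the genes passing in +/+ mice went from 4543 to between 2200 (without +/+ CR replicate 3) and 5959 (without +/+ CR replicate 4), and in -/- mice from 2025 to as few as 248 (without -/- CR replicate 3). With a log2 fold change over 1 required as well, 0 of 8 passed in either genotype (background 9.19% and 3.52%; DESeq2 also gave 0), and at an unadjusted p under 0.05 the counts were 1 and 2 (background 40.3% and 29.1%). The median log2 fold change of the members was 0.17 in +/+ and -0.01 in -/- mice, against 0.0029 and 0.047 over all genes tested. These calls were sensitive to single samples. That of C3 in +/+ mice was lost without +/+ AL replicate 1 or without +/+ CR replicate 2 or 3 (adjusted p 0.0506 to 0.0617), that of C3 in -/- mice without -/- AL replicate 1 or 3 or -/- CR replicate 2 or 3 (0.0572 to 0.0845), and that of Cfp in -/- mice without -/- AL replicate 2 or any of the -/- CR replicates (0.0522 to 0.0578), always with the same direction.

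Markers of several blood cell types, monocytes and neutrophils among them, had lower mean summed levels with CR. The summed level of 10 monocyte markers was 4768 to 5284 CPM in +/+ AL and 3325 to 4043 in +/+ CR, and 4976 to 5745 in -/- AL and 3809 to 4601 in -/- CR. Of these markers 6 fell in +/+ and 3 in -/- mice. Of 10 neutrophil markers 6 fell in +/+ and 0 in -/- mice, and the summed level went from 28031 to 36618 CPM in +/+ AL to 15364 to 25818 in +/+ CR, and from 30519 to 31345 in -/- AL to 19058 to 30404 in -/- CR. Macrophage markers, also myeloid, did not go with them. Of 10 such markers 3 rose and 0 fell in +/+ mice, and 1 rose and 0 fell in -/- mice. Their summed level by group mean was 1400 CPM in +/+ AL, 1745 in +/+ CR, 1549 in -/- AL and 1640 in -/- CR. Lists outside these cells fell as well. Of 10 B-lineage markers 4 fell in each genotype, and of 7 megakaryocyte markers tested 5 fell in +/+ and 1 in -/- mice. Of all genes tested 26.0% passed in +/+ and 11.6% in -/- mice. The part of these cell types in the result for C3 and Cfp was not tested. Hepatocyte markers were near 0 in all samples: the 7 counted summed to 1.28 to 11.9 CPM and Alb had a median of 0.254 CPM, against 419 to 944 CPM for C3. Skeletal muscle markers were uneven, with summed levels of 46.2 and 144 CPM in -/- CR replicates 2 and 3. In all other samples that sum was at most 34.3 CPM. The part of muscle RNA in the -/- CR values was not tested.

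**Figure D3:**
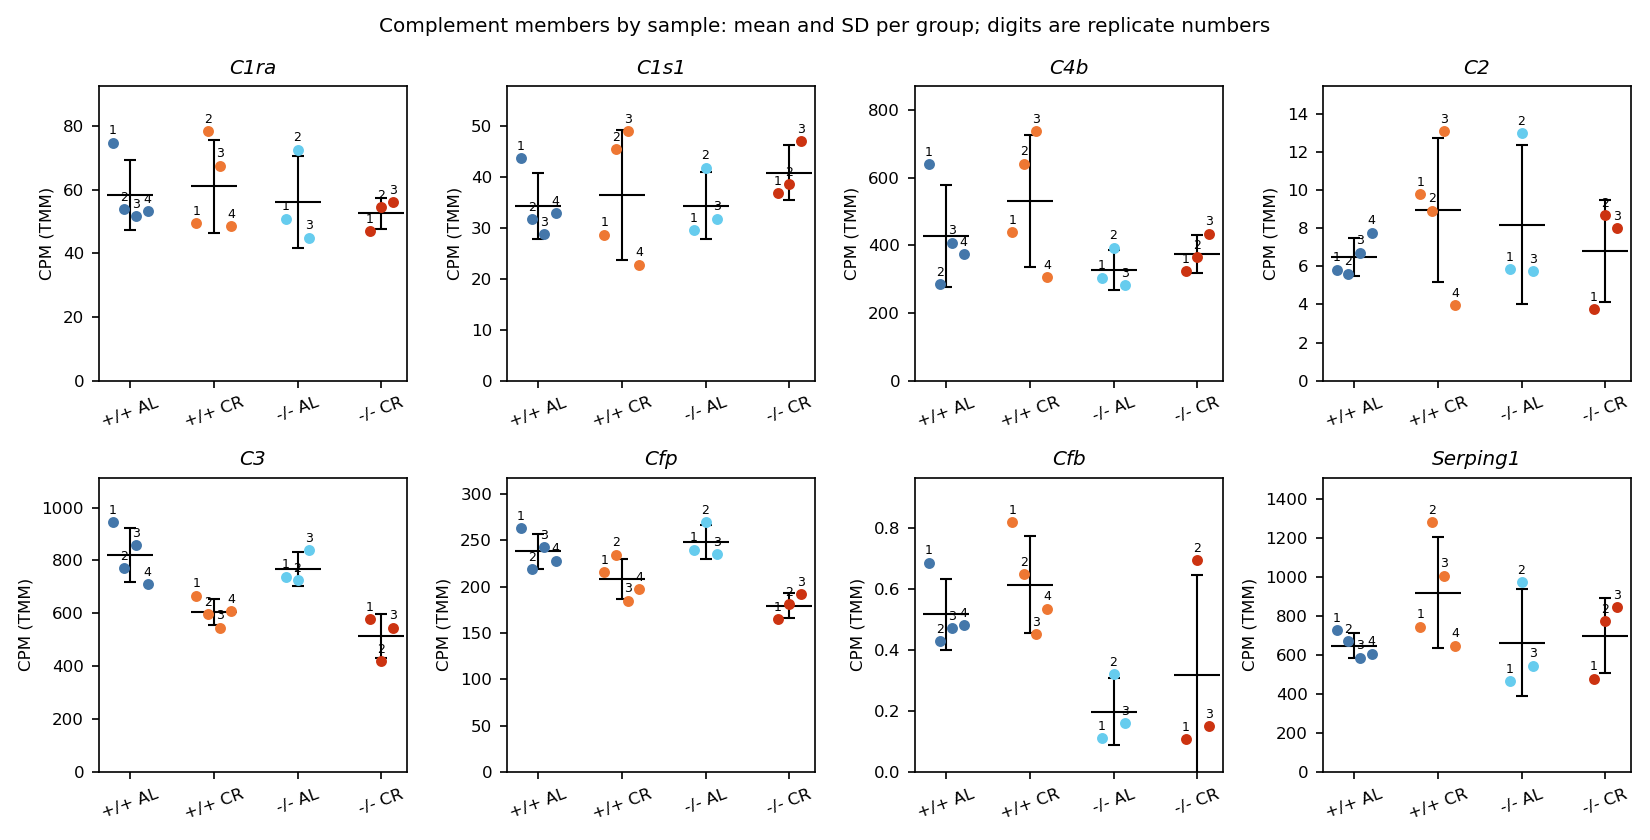
CPM of each member in the 14 samples (points, labelled with the replicate number), with the mean and SD of each group (bars). C3 is lower in all CR samples than in all AL samples of the same genotype, whereas the groups overlap for C1ra, C1s1, C4b, C2 and Serping1.

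The classical pathway members did not pass the test in either genotype. C4b, the source of the C4b fragment that anchors the C3 convertase, was at 639, 286, 408 and 373 CPM in +/+ AL and at 438, 641, 738 and 306 CPM in +/+ CR. It was at 304, 393 and 281 CPM in -/- AL and at 323, 364 and 434 CPM in -/- CR. The log2 fold change with CR was 0.32 ± 0.27 in +/+ (adjusted p = 0.40) and 0.20 ± 0.32 in -/- mice (adjusted p = 0.73). Samples of 1 group differed in C4b by up to 2.41-fold, in +/+ CR.

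C1ra, the protease that activates C1s, was at 74.8, 54.0, 51.7 and 53.3 CPM in +/+ AL, 49.6, 78.5, 67.6 and 48.7 in +/+ CR, 51.0, 72.6 and 45.0 in -/- AL and 47.0, 54.5 and 56.2 in -/- CR. Its log2 fold changes with CR were 0.06 ± 0.18 and -0.10 ± 0.21. C1s1, which cleaves C4 and C2, was at 43.6, 31.7, 28.8 and 32.9 CPM in +/+ AL, 28.6, 45.4, 49.0 and 22.7 in +/+ CR, 29.5, 41.8 and 31.8 in -/- AL and 36.8, 38.6 and 47.0 in -/- CR. Its log2 fold changes were 0.09 ± 0.22 and 0.25 ± 0.26 (adjusted p = 0.78 and 0.56), and the second turned to -0.33 ± 0.25 in the deposited matrix, which holds reverse-strand counts for 11 samples and unstranded counts for the 3 -/- CR samples. With the first- and second-strand counts summed, which keeps the exons shared with the antisense gene, it was 0.18 ± 0.26.

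C2, the serine protease of the C3 convertase, had low counts (70 to 291). It was at 5.83, 5.62, 6.73 and 7.78 CPM in +/+ AL, 9.80, 8.93, 13.1 and 3.96 in +/+ CR, 5.84, 13.02 and 5.74 in -/- AL and 3.74, 8.69 and 8.003 in -/- CR. The fold changes with CR had opposite signs, 0.47 ± 0.36 in +/+ and -0.27 ± 0.42 in -/- mice, and neither these (adjusted p = 0.35 and 0.72) nor their difference (-0.73 ± 0.56, adjusted p = 0.64) passed the test. Cfb, its counterpart in the alternative pathway, was counted only 2 to 17 times per sample, with 14, 8, 9 and 10 counts in +/+ AL, 17, 14, 10 and 10 in +/+ CR, 2, 6 and 3 in -/- AL and 2, 13 and 3 in -/- CR. Most of its exons could not be counted, and no change with diet was detectable (0.24 ± 0.46 and 0.65 ± 0.66). Without -/- CR replicate 2 the second value was -0.60.

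Serping1 was at 728, 673, 586 and 608 CPM in +/+ AL, 746, 1280, 1007 and 647 in +/+ CR, 466, 975 and 546 in -/- AL and 479, 773 and 844 in -/- CR. With CR the log2 fold change was 0.50 ± 0.26 in +/+ (adjusted p = 0.16) and 0.08 ± 0.30 in -/- mice (adjusted p = 0.89), and the groups overlapped in both.

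**Figure D4:**
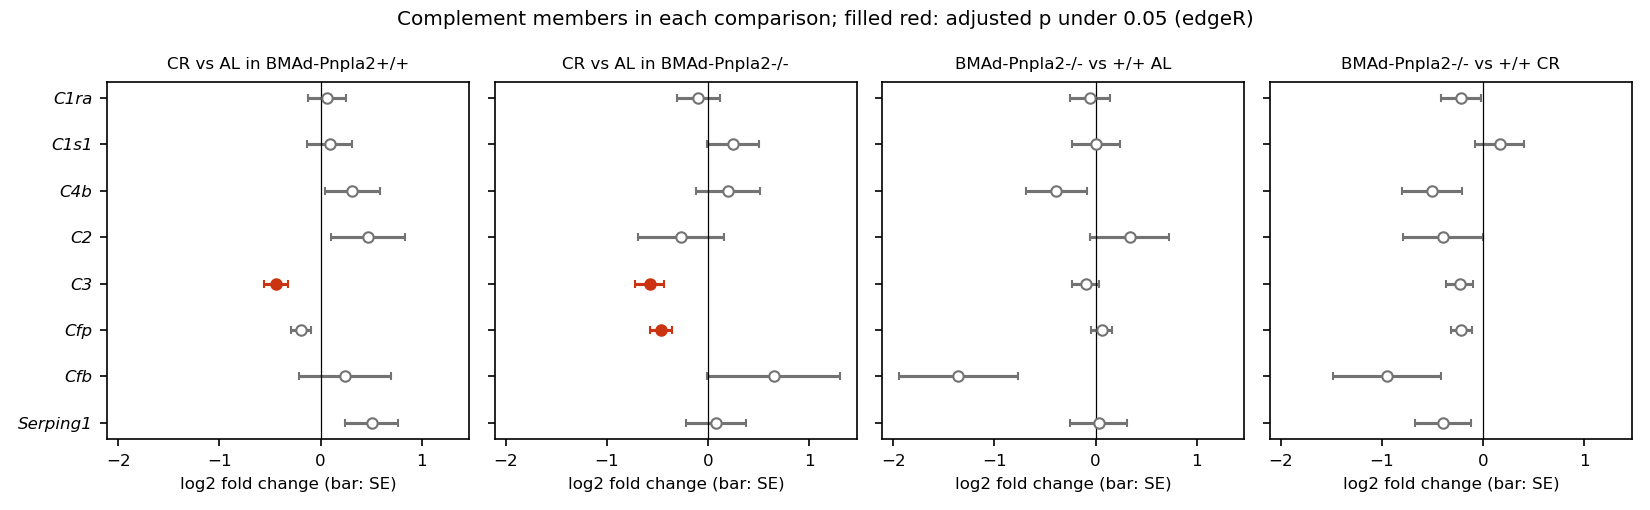
Log2 fold change of each member (point) with its standard error (bar) in the 4 pairwise comparisons, filled red where the adjusted p was under 0.05. C3 in both diet comparisons and Cfp in that of -/- mice are the filled points, all below 0.

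These 5 genes, Serping1, C4b, C2, C1ra and C1s1, tended to be high or low in the same samples. In +/+ CR replicates 2 and 3 were the highest pair for 4 of the 5 (replicates 3 and 1 for C2) and replicate 4 was the lowest for all 5, and in -/- AL all 5 were highest in replicate 2. Pearson's r between pairs of the 5 on log2 CPM over 14 samples ran from 0.55 (C2 with C1s1) to 0.80 (C1ra with Serping1). C3 and Cfp had r = 0.78 with each other, and C3 had r of -0.34 to 0.01 with the 5. These are descriptions over samples that share libraries, tissue make-up and group. The summed level of 10 markers of marrow stromal (Cxcl12-abundant reticular) cells was 10067 and 9549 CPM in +/+ CR replicates 2 and 3, 5880 in replicate 4, 7785 in -/- AL replicate 2, and 4702 and 5239 in -/- AL replicates 1 and 3. In +/+ AL replicate 1, where 4 of the 5 genes were highest in their group, it was 5908 CPM, against 5949 in replicate 4. With CR 4 of these 10 stromal markers rose in +/+ and 1 in -/- mice, where 26.0% and 11.6% of all genes tested passed. Other marker sums moved in the same samples. That of 10 macrophage markers was 2163 and 1900 CPM in +/+ CR replicates 2 and 3 against 1445 and 1471 in the others, 2032 in -/- AL replicate 2 against 1214 and 1402, and 1760 in +/+ AL replicate 1 against 1182 to 1368. Adipocyte and endothelial sums were also highest in +/+ CR replicates 2 and 3 (5088 and 5461 CPM, 2018 and 1613 CPM) and lowest in replicate 4 (2175 and 1137 CPM), and the erythroid sum was lowest in replicates 2 and 3 (10283 and 10552 CPM) and highest in replicate 4 (49872 CPM). The part of these cell types in the pattern was not tested.

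The genes outside complement whose log2 CPM was most like a member's over the 14 samples, among the 12882 genes whose counts averaged 50 or more, were found for each member. For C3 they were Tor4a (r = 0.97), Galns (0.96), which degrades glycosaminoglycans in lysosomes, and Eml2 (0.96). For Cfp they were Ripk3 (0.94), a kinase of necroptosis, Ier5 (0.94) and Eefsec (0.94), which serves selenoprotein synthesis. For Serping1 they were Lgmn (0.97), the lysosomal protease legumain, Pea15a (0.95) and Evc (0.94), and for C4b Cldn5 (0.93), a tight junction protein of endothelium, Alkbh3 (0.91) and Ushbp1 (0.91). C1ra was most like Sh3d19 (0.91), Itga9 (0.91) and Chst7 (0.90), and C1s1 like Apod (0.89), a lipocalin, Car13 (0.89) and Ecm2 (0.89). C2 was most like 1500009L16Rik (0.90), Klhdc8b (0.85) and Gdpd2 (0.84), and Cfb like Hook2 (0.88), Clpp (0.84) and Zfp747 (0.78). For the mean z-score of the 8 members they were Abhd12 (0.92), Cd83 (0.92), Rftn1 (0.92), Rasa4 (0.91) and Gaa (0.91). That mean averages members that did not all vary together. All these genes were picked as the highest of 12882 over 14 samples, so high r values come with the selection. Cfb was counted only 2 to 17 times per sample, so counting error weighs in its values.

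The genotype comparisons asked what loss of ATGL in bone marrow adipocytes changed under each diet. They share all their samples with the diet comparisons, each group entering 1 comparison of each kind. Under AL 0 of 8 members passed (background 0% of genes), with 1 of 8 at an unadjusted p under 0.05 (background 3.97%) and 0 by DESeq2. Under CR 0 of 8 passed (background 0.0171%, and 0.0114% with a log2 fold change over 1), with 0 of 8 at an unadjusted p under 0.05 (background 23.2%) and 0 by DESeq2. For C3 the -/- minus +/+ difference in log2 CPM was -0.10 ± 0.13 under AL and -0.23 ± 0.13 under CR, for Cfp 0.06 ± 0.10 and -0.22 ± 0.10, and for C4b -0.39 ± 0.30 and -0.51 ± 0.30. For Serping1 it was 0.03 ± 0.28 and -0.40 ± 0.28, for C2 0.34 ± 0.39 and -0.40 ± 0.40, for C1ra -0.06 ± 0.20 and -0.22 ± 0.20, and for C1s1 0.0049 ± 0.24 and 0.16 ± 0.24. Under CR 7 of 8 members were below 0 (median -0.31, all genes -0.012). Several members were high or low in the same samples, so these signs are not independent. Cfb was the member at an unadjusted p under 0.05, with 2, 3 and 6 counts in -/- AL, all below the 8 to 14 of +/+ AL (-1.36 ± 0.59, adjusted p = 1.0). Under CR its difference was -0.95 ± 0.53 (adjusted p = 0.30), and -2.20 to -0.55 with 1 sample left out. The genotype by diet interaction gave 0 of 8 members (background 0%), with 0 at an unadjusted p under 0.05 (background 10.4%) and 0 by DESeq2, and values from -0.73 for C2 to 0.41 for Cfb.

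The other genes of the pathway included larger changes with CR than any member. Of 50 further complement genes listed, 41 were in the matrix and 36 were tested. Under CR 5 rose and 4 fell in +/+ mice and 3 rose and 2 fell in -/- mice, which makes 9 and 5 of 36 in either direction, against 26.0% and 11.6% of all genes. Past a log2 fold change of 1 as well, 3 were higher in +/+ (Cfd, Masp1 and Susd4) and 2 in -/- mice (Cfd and Masp1), against 9.19% and 3.52% of all genes, and 0 were lower. In both genotype comparisons (AL, then CR) and the interaction 0 of 36 passed. At an unadjusted p under 0.05 the counts were 2, 5 and 3, where 3.97%, 23.2% and 10.4% of all genes passed. By DESeq2 they were 0, 2 and 0 at an adjusted p under 0.05, where 19, 1617 and 65 of all 17494 genes passed.

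Cfd, the protease that cleaves factor B, had the highest mean level per length of the complement genes plotted in 3 of the 4 groups, with 499.5 FPKM in +/+ AL, 1699 in +/+ CR and 659 in -/- CR, and 140 in -/- AL. It was at 906, 293, 302 and 341 CPM in +/+ AL, 1622, 2049, 1837 and 760 in +/+ CR, 79.6, 216 and 91.9 in -/- AL and 444, 660 and 718 in -/- CR. It rose with CR in both genotypes, with log2 fold changes of 1.77 ± 0.44 (adjusted p = 0.014) and 2.23 ± 0.52 (adjusted p = 0.019), the latter call lost without -/- AL replicate 1 or 3 or -/- CR replicate 2 or 3 (adjusted p 0.0515 to 0.0775). All -/- samples were below all +/+ samples of the same diet, by -1.84 ± 0.49 under AL (adjusted p = 0.91) and -1.37 ± 0.48 under CR (adjusted p = 0.13), which did not pass. Adipocyte markers moved beside it: 10 of 10 rose in +/+ and 8 of 10 in -/- mice, where 26.0% and 11.6% of all genes tested passed. Their summed level was 901 to 1691 CPM in +/+ AL, 2175 to 5461 in +/+ CR, 600 to 1130 in -/- AL and 1660 to 2610 in -/- CR. Their part was not tested.

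Masp1, a protease of the lectin pathway, had 14, 7, 0 and 3 counts in +/+ AL and 94, 163, 94 and 36 in +/+ CR, a log2 fold change of 3.89 ± 0.63 (adjusted p = 0.0022). In -/- mice it had 0, 1 and 1 counts under AL and 7, 14 and 20 under CR, a ratio of 19.8 with an exact 95% interval of 5.13 to 169 that covers counting error only (adjusted p = 0.036). That call was lost without any 1 of the -/- AL replicates or without -/- CR replicate 2 or 3 (adjusted p 0.0649 to 0.126). Susd4, a membrane protein that inhibits complement, was at 2.40 ± 0.65 CPM in +/+ AL and 11.7 ± 4.48 in +/+ CR (2.29 ± 0.35, adjusted p = 0.0018), and at 3.28 ± 1.55 and 7.21 ± 2.50 in -/- mice (1.13 ± 0.40, adjusted p = 0.076).

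The further genes that passed with a log2 fold change within 1 of 0 are named after their values were seen. Colec12, a scavenger receptor with a collectin domain, rose in +/+ mice (0.87 ± 0.25, adjusted p = 0.024), and Cd46, a membrane cofactor for C3b and C4b cleavage, in -/- mice (0.77 ± 0.21, adjusted p = 0.032, with 14.2% of its exon length shared with a gene on the other strand). The Cd46 call was lost with both strands summed (0.59, adjusted p = 0.072) and in the deposited matrix (0.43, adjusted p = 0.16). Clusterin (Clu), which blocks the terminal complex, fell in both genotypes (-0.38 ± 0.10 and -0.43 ± 0.12), as did Itgax, the alpha chain of complement receptor 4 (-0.51 ± 0.17 and -0.68 ± 0.19). The beta chain Itgb2 fell in +/+ mice (-0.46 ± 0.12, adjusted p = 0.019), and ficolin B (Fcnb), a lectin pathway recognition protein of myeloid cells, did too (-0.80 ± 0.23, adjusted p = 0.025). The calls of Colec12, Clu, Itgax, Itgb2 and Fcnb were each lost when one of several single samples was left out, with adjusted p up to 0.119 in the genotypes where they had passed, as was that of Cd46 (up to 0.131). With total counts alone as the scaling, Clu in -/- mice and Itgax in both genotypes did not pass, nor did Clu in +/+ mice in a fit to the groups compared alone (adjusted p = 0.055).

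C1q, the recognition unit of the classical pathway, is made by macrophages. Its 3 chains C1qa, C1qb and C1qc were at 191 ± 26.1, 233 ± 42.5 and 222 ± 35.7 CPM in +/+ AL, and their log2 fold changes with CR were 0.16 ± 0.21, 0.17 ± 0.18 and 0.35 ± 0.21 in +/+ and 0.27 ± 0.25, -0.21 ± 0.21 and -0.02 ± 0.24 in -/- mice, none past the test. The near copies C1rb, C1s2 and C4a were low, at 0.271, 1.41 and 0.203 FPKM in +/+ AL against 19.6 FPKM for C1ra, 10.9 for C1s1 and 74.9 for C4b. C4a had 0.84 ± 0.31 in +/+ (adjusted p = 0.059) and 0.79 ± 0.37 in -/- mice.

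The lists are read against the 26.0% of all genes that passed in +/+ and the 11.6% in -/- mice. By list, 0 of 10 classical pathway genes passed in either diet comparison. Values above 0 were found for 10 of 10 in +/+ and 6 of 10 in -/- mice (median 0.33 and 0.22, against 0.0029 and 0.047 over all genes tested). These 10 include near copies and genes that were high in the same samples, so they are not independent. In +/+ mice C1ra and C1s1 turned below 0 with some single samples left out (down to -0.079 and -0.083). Of 6 lectin pathway genes 2 rose and 1 fell in +/+ mice and 1 rose in -/- mice. Of the 4 alternative pathway genes Cfd rose and C3 fell in both genotypes, and Cfp fell in -/- mice. Of 3 terminal pathway genes tested 0 passed. Of 7 membrane regulators 1 rose in each genotype. Of 10 receptors 2 fell in +/+ and 1 in -/- mice. Outside complement, of 19 interferon-stimulated genes 11 fell and 0 rose in +/+ mice, and 9 fell and 0 rose in -/- mice, beside the same 26.0% and 11.6% of all genes. Their median log2 fold changes were -0.69 and -0.85, and their part in the values of the members was not tested.

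**Figure D5:**
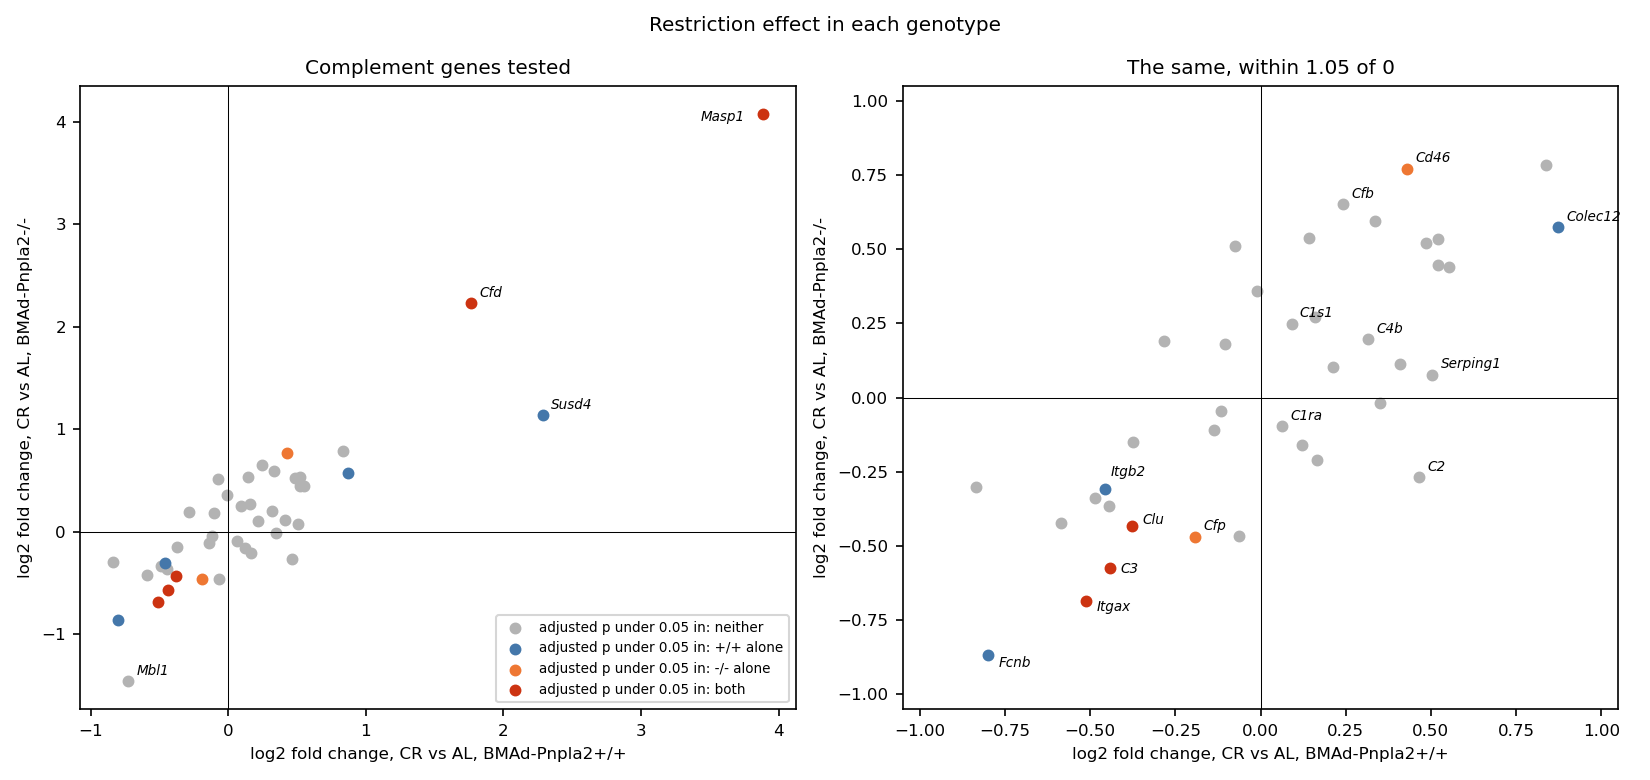
Log2 fold change with CR in +/+ (x axis) and -/- mice (y axis) for the 44 complement genes tested (1 left out), coloured by where the adjusted p was under 0.05, and the right panel enlarges the values near 0. Masp1, Cfd and Susd4 lie farthest to the upper right, and C3, Clu and Itgax are below 0 on both axes.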

How the data were processed

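RNA from 14 pooled samples was sequenced as paired reads, per the labels from a stranded kit, although the 3 -/- CR libraries behaved as unstranded. The authors aligned to mm10 with STAR, after FastQC 0.11.9, and deposited raw read counts per gene for each sample without strand and for either strand, beside a count matrix that held reverse-strand counts for 11 samples and unstranded counts for the 3 -/- CR samples. The unstranded counts of all samples were used here, for the 23441 genes of the matrix. Totals of 18898324 to 21665553 per sample limit precision for Cfb, C2 and Masp1. One edgeR 4.0.16 model of 4 groups (R 4.3.3, TMM, filterByExpr, robust quasi-likelihood test, two-sided) was fitted to 17494 genes, with Benjamini-Hochberg adjustment over all of them. Genes passed at an adjusted p under 0.05, and were counted again with a log2 fold change beyond 1. Replicates are pools of mice, and p-values measure the spread between these samples. CPM used TMM-scaled totals, FPKM the merged exon length of GENCODE M21. Named were the 8 members, Pnpla2, other complement genes past both criteria, C1qa, C1qb, C1qc, Cfd, C4a, C1rb, C1s2 and the 3 genes most alike each member (5 for the mean z-score). Colec12, Cd46, Clu, Itgax, Itgb2 and Fcnb were named outside this rule, after their values were seen. Members and lists were chosen with earlier results of these data known. Alternatives, DESeq2 1.42.0 among them, are given under the dependence on processing. Sequences are from RefSeq. One further complement gene is counted in the lists and is not reported here.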

Additional observations from a re-analysis of the deposited data

Results flagged for a closer look

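C1ra in BMAd-Pnpla2+/+ AL replicate 1, at 74.8 CPM, stood apart from the other 3 samples of its group, at 51.7 to 54.0 CPM. Cfd in the same sample, at 906 CPM, stood apart from the 293 to 341 CPM of the others. In both, the gap to the nearest sample, as a share of the range of the group, was above Dixon's 95% critical value for 4 samples. Of 18 groups of 4 samples examined these were the 2 found, and chance gives about 1 in 20. Adipocyte markers summed to 1691 CPM in that sample, the highest of its group, and marrow stromal markers to 5908 CPM, within the range of the others. Macrophage markers summed to 1760 CPM, against 1182 to 1368 in the others, and erythroid markers to 17502 CPM, against 28038 to 31599. Their part in these values was not tested.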

How the results depend on the processing

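The calls of C3 in both genotypes and of Cfp in -/- mice held under every alternative scaling, filter, tool and count column run. The reverse-strand column alone was fitted only without the -/- CR samples. In -/- mice every alternative therefore set unstranded CR libraries against stranded AL libraries, and none could separate library type from diet. The calls did not hold under every omission of 1 sample. Members past an adjusted p of 0.05 then ranged from 0 to 1 in +/+ and from 0 to 2 in -/- mice, and the other complement genes from 4 to 10 and from 0 to 7 (past both criteria 3 to 5 and 0 to 3). In the CR genotype comparison the other complement genes ranged from 0 to 5 (0 to 2 past both criteria). In -/- mice under CR, DESeq2 and the deposited matrix each gave 8 other complement genes in place of 5, and a fit to only the groups compared gave 1 in place of 2 past both criteria. For genotype under CR, DESeq2 gave 2 and the matrix 6 (2 past both criteria), and for the interaction the matrix gave 1 on either rule, in place of 0. Over all genes in -/- mice the matrix gave 3898 and DESeq2 3098 in place of 2025, in +/+ mice the groups compared alone gave 2689 in place of 4543, and for genotype under CR DESeq2 gave 1617 and the matrix 2451 in place of 3. With 1 sample left out, the genes passing ranged from 2200 to 5959 in +/+ mice and from 248 to 2402 in -/- mice (248, 443, 510 and 817 without -/- CR replicate 3, -/- AL replicate 1, -/- AL replicate 3 and -/- CR replicate 2), and for genotype under CR from 0 to 2092, the latter without +/+ CR replicate 4. The cause was not tested. Scaling by total counts alone moved the median of all genes to 0.12 in -/- mice under CR.

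Signs turned only in values that did not pass the test. In the deposited matrix C1s1 was -0.33 for diet in -/- mice, -0.39 for genotype under CR and -0.41 for the interaction. With total counts alone C1qc was 0.061 (-/- diet) and C1s1 -0.017 (AL genotype). With 1 sample left out, the ranges were, for AL genotype, C1ra -0.28 to 0.084, C1s1 -0.16 to 0.14, C2 -0.16 to 0.53, Cfp -0.0016 to 0.11 and Serping1 -0.36 to 0.23, and for CR genotype C1s1 -0.0065 to 0.34. For diet in +/+ mice they were C1ra -0.079 to 0.21 and C1s1 -0.083 to 0.26, and in -/- mice C1qc -0.19 to 0.21, C1ra -0.27 to 0.13, C1rb -0.0047 to 0.81, C2 -0.51 to 0.23, Cfb -0.60 to 1.17 and Serping1 -0.17 to 0.46. For the interaction they were C1ra -0.30 to 0.066, C1s1 -0.012 to 0.33, C4b -0.38 to 0.081 and Cfb -0.84 to 0.93.

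Samples with the same replicate number shared only that number: 7 of 19 pairs had a correlation of deviations over 0.1 (median 0.017), and 5 of 14 samples correlated best with their own number. With a replicate block the counts of members stayed at 1 and 2, and C1s1 (-0.13) and Serping1 (-0.15) turned sign for AL genotype.

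Both-strand sums, counts without the -/- CR samples, the full gene set and the length shared with no other gene were added after the data were seen.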
